A study of Mus musculus with 113 samples.

Results

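The 2C-to-4C transition was described in mouse embryos that had been injected with a negative control (NC) siRNA, a short RNA duplex with no intended target. The members were the 4 RNA-seq libraries of NC pools at these stages, 2 from 2-cell (2C) and 2 from 4-cell (4C) embryos, out of 92 samples with values and 113 samples listed in the series. No measured value was used to choose them. The embryos were labelled wild type, came from C57BL/6N females mated with PWK/PhJ males by the study's methods, and received the NC siRNA at 20 µM in both groups, and each library was made from several pooled embryos. The 2C pools were the controls of an Nr5a2 knockdown (KD), and the 4C pools were the controls of a combined knockdown of Nr5a2, Rarg, Nr1h3 and Nr2c2, so that stage and experiment cannot be told apart in this comparison. Nothing in the labels says whether the 2 pools of a stage came from separate matings, and the p-values measure only the spread between such pools.

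A mouse egg is loaded with transcripts made during oocyte growth, and most of these are cleared after fertilization while the embryo's own genome is switched on in a minor and then a major wave of zygotic genome activation (ZGA). The 2C stage carries a transient burst of genes such as the Zscan4 cluster. By the 4C and 8C stages the embryo makes its own housekeeping machinery, and the regulators of the first lineages begin to appear.

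Between the 2 stages, transcripts for ribosomes, proteasomes, mitochondrial respiration and protein folding rose together, and oocyte-deposited and 2C-burst transcripts fell. In FPKM (fragments per kilobase of transcript, scaled to the size of the library), cytosolic ribosomal protein genes went from library medians of 15.7 and 20.3 at 2C to 95.1 and 145 at 4C. Genes of the subcortical maternal complex and the NLRP family went from 16.4 and 11.1 to 0.639 and 1.39. Of 11574 genes with a mean of at least 1 FPKM at either stage, 604 (5.22%) rose and 727 (6.28%) fell past both limits used by the study, which are an adjusted p below 0.01 together with a log2 fold change beyond 2 in either direction. These calls rest on a spread estimated over 12 pools, and with the 4 libraries fitted alone 0 genes rose and 1 fell past both limits (750 and 792 at an adjusted p under 0.05). In the text below, "rose" and "fell" stand for an adjusted p under 0.05 alone (limma on log2(FPKM + 1), Benjamini-Hochberg adjustment over all 11574 genes), which 1603 genes (13.9%) and 2041 genes (17.6%) reached. The plot of stage means shows both sets lying on either side of a broad band of genes near the diagonal.

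**Figure D1:**
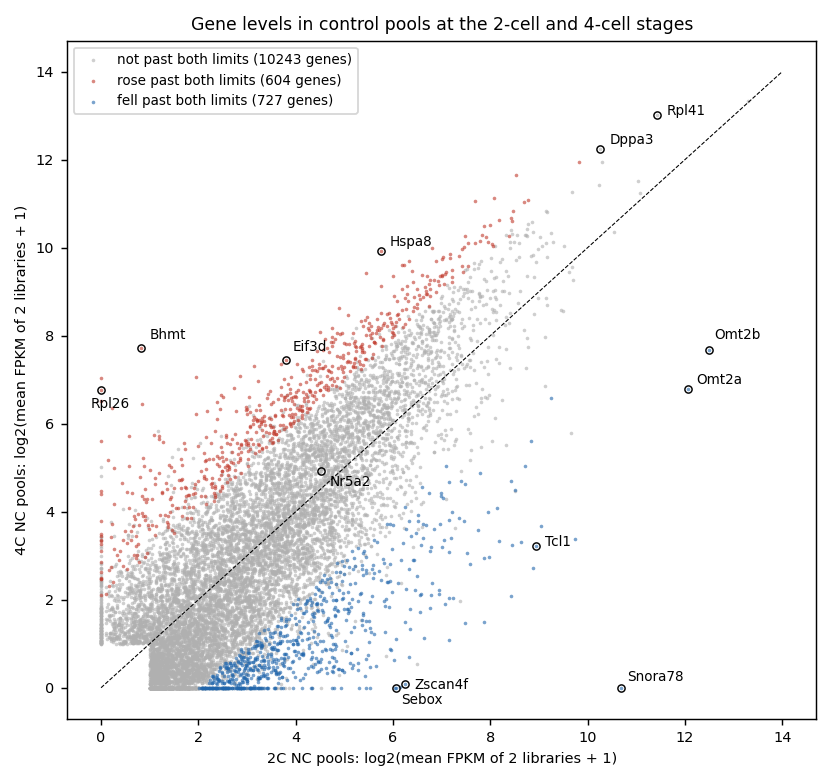
Mean level of each of the 11574 tested genes in the 2C NC pools (x axis) and the 4C NC pools (y axis), both as log2(mean FPKM of 2 libraries + 1), with the 604 genes that rose and the 727 that fell past both limits in colour and a dashed line of equal levels. Named genes are circled, and Snora78, Omt2a and Omt2b lie far below the line at the right, while Nr5a2 lies close to it.

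The 4 libraries differed in composition. Summed FPKM was 303407 and 265390 at 2C and 430977 and 496144 at 4C, so equal FPKM values at the 2 stages are unequal shares of these sums. Genes at 1 FPKM or more numbered 10600 and 10426 in the 2C libraries and 8860 and 8686 in the 4C libraries, and the relative depth read from the lowest values was 1 and 1.33 at 2C and 1.33 and 0.931 at 4C. The 4C libraries were more alike (Pearson's r across genes 0.920) than the 2C libraries (0.854), and pairs from different stages gave 0.684 to 0.758. FPKM is relative to each library's own total of fragments, so a gain of one transcript per embryo and a loss of others cannot be told apart. The median log2 fold change over all genes was -0.21, and it was -0.43 after median-ratio scaling and 0.05 after quantile normalization. With median-ratio scaling the genes past both limits were 454 up and 907 down. The column heading of 2C replicate 1 carries the same series name as those of both 4C libraries, and that of 2C replicate 2 carries another; without 2C replicate 2, 351 genes rose and 676 fell past both limits (135 and 154 without 4C replicate 1, 238 and 327 without 4C replicate 2, 404 and 444 without 2C replicate 1). Markers of cumulus and granulosa cells were listed at 0 for 13 and 9 of 18 genes at 2C and for 17 of 18 in each 4C library, with summed levels of 5.56 and 55.7 FPKM at 2C and 0.105 and 0.159 FPKM at 4C. The higher sum came from Hsd3b1 in 2C replicate 2 (43.7 FPKM, and 0 in the other 3 libraries). Of 12 sperm markers, 9 were listed at 0 in each 4C library and 8 and 9 in the 2C libraries, with sums of 46.2 and 42.8 FPKM at 2C and 12.1 and 10.3 FPKM at 4C. Of 11 blood markers, 7 were at 0 in each 2C library and 8 in each 4C library, the sums were 132 and 97.9 FPKM against 13.4 and 116 FPKM, and Hbb-b1 and Ptprc were at 0 throughout. The part of these cells in the results was not tested.

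The transcripts with the greatest rise were at 0 to 3.08 FPKM at 2C and at 9.59 to 298 FPKM at 4C. Bhmt, which remethylates homocysteine to methionine, stood at 1.53 and 0 FPKM at 2C and at 298 and 122 FPKM at 4C (log2 fold change 6.91 ± 0.69 SE, adjusted p = 0.000259). Mrps31, a protein of the small mitochondrial ribosomal subunit, went from 0 and 0.331 FPKM to 76.9 and 84.1 FPKM (6.14 ± 0.36, adjusted p = 1.77e-05). Ly6a, the cell surface antigen Sca-1, went from 1.59 and 0 FPKM to 96.3 and 75.2 FPKM (5.74 ± 0.50). In each of these the 4C libraries agreed to within 3-fold and lay far above both 2C libraries. Pdcd6, a calcium-binding protein, had 3.08 and 2.68 FPKM at 2C and 162 and 102 FPKM at 4C. Vnn1, a pantetheinase, had 0 and 0.195 FPKM and then 40.0 and 29.8 FPKM. Ckmt1, a mitochondrial creatine kinase, had 0.418 and 0 FPKM and then 42.2 and 19.0 FPKM. Igbp1, a binding partner of the PP2A catalytic subunit, had 0.883 and 1.34 FPKM and then 64.0 and 40.3 FPKM, and S100a3, a calcium-binding S100 protein, 0 and 0.960 FPKM and then 74.4 and 29.5 FPKM.

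Sycn, Prl3b1 and Fbp2 were listed at 0 in both 2C libraries, so no fold is given. Sycn (syncollin, a secretory granule protein) reached 253 and 9.59 FPKM at 4C, and Fbp2 (the muscle form of fructose-bisphosphatase) 167 and 13.1 FPKM. In both genes 4C replicate 1 was the higher library by more than 10-fold. Prl3b1, a placental lactogen, was even between the replicates (48.3 and 47.3 FPKM). Over all tested genes, 20 were below 1 FPKM in both 2C libraries and at 10 FPKM or more in both 4C libraries, and 56 showed the opposite. A value of 0 is only the listed estimate here, since 8 and 6 of the 77 ribosomal protein genes were also listed at 0 in the 2C libraries.

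**Figure D2:**
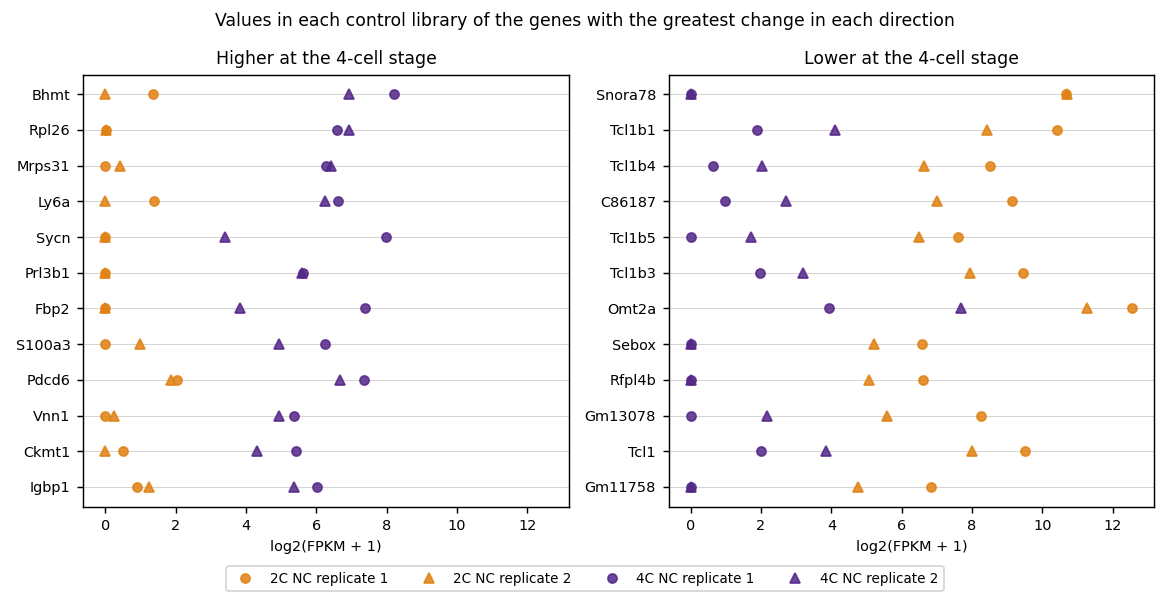
log2(FPKM + 1) in each of the 4 NC libraries (x axis) of the 12 genes with the greatest rise (left) and the 12 with the greatest fall (right) among those past both limits, without overlap between stages and with a mean of at least 10 FPKM at one stage. All 4C points lie on one side of the 2C points because the rule required it, and the spacing of the 2 replicates differs from gene to gene, being widest for Sycn at 4C.

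The promoter of Bhmt is shown because it holds the motif bound by NR5A2, the receptor at the centre of the study. Bhmt lies on chromosome 13 (chr13:94386846-94407916, minus strand, mm9). The 250 bases before its start in RefSeq (GRCm38.p6, chr13:93637759-93638008, minus strand) read as follows, with the motif TCAAGGNCA in capitals, its first base 75 bases before the start.
Bhmt: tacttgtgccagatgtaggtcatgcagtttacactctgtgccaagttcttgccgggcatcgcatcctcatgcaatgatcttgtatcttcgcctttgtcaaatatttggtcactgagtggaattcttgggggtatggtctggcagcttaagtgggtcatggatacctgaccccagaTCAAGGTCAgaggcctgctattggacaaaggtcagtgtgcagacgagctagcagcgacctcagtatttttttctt

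TCAAGGNCA on either strand, in the 300 bases from 250 before to 50 after the gene start, was present in 100 of 8779 promoters matched to tested genes (1.14%). It was present in 23 of 1205 promoters of genes that rose (1.91%) and in 11 of 1548 promoters of genes that fell (0.711%). Among genes past both limits the shares were 8 of 446 (1.79%) and 3 of 556 (0.540%). These shares are descriptions of letters in a short window and say nothing of binding. The sites of the genes past both limits that rose are shown with 10 flanking bases on the gene's own strand, the motif or its reverse complement in capitals; these genes were picked for the motif after their values were known.
Bhmt: tgaccccagaTCAAGGTCAgaggcctgct
Fancl: tttttgacagTCAAGGTCAgaataatcct
Eif4e: gatcgacagtTCAAGGCCAtcctccccta
Pramel4: atctccaaatTCAAGGCCAtctgggatta
Sar1b: caaagtgagtTCAAGGACAgccaggacta
Dnajc24: acccggccttTGTCCTTGAtttgtttcct
Pld3: ccggaagtccTGCCCTTGAtaccggaagc

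The remaining site is that of Gm13102, whose 9 motif bases and position 101 bases before the start match those of Pramel4, a PRAME-like gene on the same chromosome (GRCm38.p6, chr4:144059014-144059042 for the Pramel4 window). Eif4e, the cap-binding protein of translation initiation, holds the motif at 91 and at 62 bases before its start, and the window around the first is shown (chr3:138526090-138526118). Its level was 237 and 136 FPKM at 2C and 688 and 849.8 FPKM at 4C (log2 fold change 2.09 ± 0.47, adjusted p = 0.00704). Fancl, a ubiquitin ligase of the Fanconi anaemia pathway, went from 0.737 and 0.984 FPKM to 15.8 and 12.2 FPKM. Sar1b, a GTPase of transport vesicles, went from 27.7 and 23.5 FPKM to 240.2 and 221 FPKM. The genes that fell past both limits with the motif were Dclk2, Ldhb and Syt11.

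No difference between the stages was detected in control pools for the 4 receptors that the study targeted. Nr5a2 had 19.4 and 24.3 FPKM at 2C and 26.8 and 31.7 FPKM at 4C (log2 fold change 0.41 ± 0.60, adjusted p = 0.624). Rarg, a retinoic acid receptor, had 9.89 and 9.57 FPKM and then 16.2 and 7.26 FPKM (0.15 ± 0.51). Nr1h3, the liver X receptor alpha, had 4.32 and 19.7 FPKM and then 15.0 and 22.3 FPKM (0.88 ± 0.70), and the orphan receptor Nr2c2 19.2 and 28.4 FPKM and then 15.0 and 14.5 FPKM (-0.63 ± 0.52). The stages overlapped in Rarg and Nr1h3 and did not overlap in Nr5a2 and Nr2c2, and none of the 4 differences passed at an adjusted p under 0.05. Over all tested genes, 28.3% had both 4C libraries above both 2C libraries, and 35.6% had both below. The sign of the Rarg difference turned with median-ratio scaling (-0.08) and without 4C replicate 1 (-0.38), and that of Nr1h3 without 2C replicate 1 (-0.10). Of 17 other nuclear receptors tested, none rose and 3 fell (17.6%, the same share as over all genes), namely Nr6a1, the germ cell nuclear factor (20.9 and 18.8 FPKM, then 2.99 and 1.06 FPKM), Esrrg (5.08 and 1.75 FPKM, then 0 in both) and Rora (2.32 and 2.37 FPKM, then 0.317 and 0 FPKM).

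Cytosolic ribosomal proteins rose as a group. Of 75 tested, 63 rose (84%, against 13.9% of all genes), 52 of them past both limits, and none fell, with all 75 point estimates above 0 and a median log2 fold change of 2.33 beside -0.21 over all genes. Their summed level was 2.31% and 3.57% of the library total at 2C and 7.41% and 8.84% at 4C. Rpl32 had 176 and 364 FPKM at 2C and 2103 and 2378 FPKM at 4C (3.14 ± 0.39, adjusted p = 0.000515), and Rps20 45.4 and 101 FPKM and then 611 and 951 FPKM (3.47 ± 0.43). Rpl41, the most abundant member, had 2191 and 3312 FPKM and then 7007 and 9549 FPKM (1.60 ± 0.34). Rpl26 was listed at 0.00531 and 0.00423 FPKM at 2C and at 95.1 and 122 FPKM at 4C. Ribosomal protein genes have many near-identical processed copies in the genome, and how reads were divided among such copies is not given in the sources used here, so single members are uncertain. Leaving out any of the 4 libraries gave 47 to 60 members that rose and none that fell, and median-ratio scaling and quantile normalization each gave 61.

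Ribosomal protein transcripts are known to begin with a C and a run of pyrimidines, the 5′ terminal oligopyrimidine tract that couples their translation to nutrient signalling. In the RefSeq promoter table, 12 of the 55 matched ribosomal protein genes (21.8%) began with a C followed by 4 bases that were each C or T, against 204 of all 8779 matched genes (2.32%) and 27 of the 1205 matched genes that rose (2.24%). With the tract allowed to lie within a few bases of the start, the counts were 25 of 55 (45.5%), 1744 of 8779 (19.9%) and 268 of 1205 (22.2%). The contrast was thus smaller when the position was relaxed. This search was chosen after the rise was seen. The starts of the 6 most abundant of these genes among those past both limits are shown from 15 bases before to 15 bases after the gene start, with the tract in capitals.
Rpl14: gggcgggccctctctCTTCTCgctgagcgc
Rpl35: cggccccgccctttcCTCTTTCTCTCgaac
Rpl38: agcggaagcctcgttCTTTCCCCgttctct
Rps6: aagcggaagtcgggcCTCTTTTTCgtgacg
Rpl15: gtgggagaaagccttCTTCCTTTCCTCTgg
Rps10: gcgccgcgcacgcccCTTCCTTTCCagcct

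The tracts ran for 6 to 13 pyrimidines. Rpl14 (GRCm38.p6, chr9:120571502-120571531, plus strand) had 42.3 and 72.6 FPKM at 2C and 355 and 357 FPKM at 4C. Rpl15 (chr14:18270972-18271001, minus strand) had 19.9 and 20.3 FPKM and then 141 and 154 FPKM, and Rps6 (chr4:86857353-86857382, minus strand), the ribosomal protein phosphorylated by S6 kinase, 29.9 and 33.5 FPKM and then 199 and 249 FPKM. In all 3 both 4C libraries were above 2C by more than 4-fold.

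Genes of ribosome biogenesis, translation initiation and splicing moved the same way to a lesser extent. Of these lists 35.9%, 52.2% and 46.2% rose, against 13.9% of all genes. Of 64 ribosome biogenesis genes, 23 rose and none fell (median log2 fold change 0.88), among them the nucleolar proteins Npm1 (132 and 124 FPKM, then 797 and 922 FPKM) and Gnl3 (76.2 and 100.5 FPKM, then 256 and 394 FPKM). Of 46 translation initiation factors, 24 rose and 3 fell (median 1.24). Eif3d and Eif3e, subunits of the eIF3 complex, went from 13.1 and 12.6 FPKM to 174 and 171 FPKM (3.64 ± 0.35, adjusted p = 0.000248) and from 37.1 and 28.7 FPKM to 327 and 380.2 FPKM. The factors that fell were Eif4enif1 and the cap-binding variants Eif4e1b (12 and 41.2 FPKM, then 0 and 1.20 FPKM), known from oocytes, and Eif4e3 (13.8 and 18.1 FPKM, then 0 and 0.264 FPKM), so that Eif4e and its oocyte variant moved in opposite directions. Of 52 spliceosome genes, 24 rose and none fell (median 1.17), with Lsm3 of the U6 snRNP at 22.4 and 18.9 FPKM and then 182 and 219 FPKM, and the splicing factor Srsf3 at 31.4 and 18.3 FPKM and then 195 and 198 FPKM. These counts depended on the scaling. With quantile normalization 7 ribosome biogenesis genes, 13 initiation factors and 15 spliceosome genes rose, and with median-ratio scaling 14, 21 and 15, while the 3 medians stayed above 0 (0.36 to 1.00). Over all genes 1420 of 11070 rose with quantile normalization and 1268 of 11677 with median-ratio scaling. The ribosome biogenesis share was thus no higher than that of all genes with quantile normalization. Without 4C replicate 2, 10 ribosome biogenesis and 13 spliceosome genes rose, without 4C replicate 1 14 and 17, without 2C replicate 1 17 and 15, and without 2C replicate 2 14 and 17.

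Proteasome subunits and chaperones rose with the ribosome. Over all genes, 13.9% rose and 17.6% fell. Of 39 proteasome genes, 32 rose (82.1%) and none fell (median log2 fold change 1.98). With quantile normalization 23 rose, and with median-ratio scaling 28 rose and 1 fell. The median was 1.74 to 2.19 with each library left out. Psma7, a subunit of the 20S core, had 103 and 63.8 FPKM at 2C and 732 and 682 FPKM at 4C (3.11 ± 0.37, adjusted p = 0.000411), and Psmc6, an ATPase of the 19S cap, 41.1 and 19.0 FPKM and then 272 and 258 FPKM. Of 26 heat shock and chaperone genes, 16 rose (61.5%) and 2 fell (7.69%, median 1.59), and 10 rose and 3 fell with quantile normalization. Hspa8, the constitutive HSP70, went from 64.0 and 41.7 FPKM to 1252 and 683 FPKM (4.14 ± 0.41, adjusted p = 0.000248), and Hsp90ab1 from 143 and 141 FPKM to 1138 and 608 FPKM. Cct4 and Cct7 of the CCT chaperonin went from 52.4 and 52.7 FPKM to 496 and 623 FPKM and from 38.0 and 43.3 FPKM to 361 and 235 FPKM. The members that fell were Hspa1a and Hsp90b1.

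Most genes of mitochondrial respiration rose. Of 76 oxidative phosphorylation subunits, 55 rose and none fell (median 1.79), and 33 rose and 1 fell with quantile normalization and 36 rose without 4C replicate 2. Ndufa12 of complex I had 7.34 FPKM in each 2C library and 82.7 and 69.1 FPKM at 4C (3.20 ± 0.38, adjusted p = 0.000418), and Uqcrb of complex III 27.1 and 11 FPKM and then 194 and 155 FPKM. Cox8a of complex IV, the most abundant member at 2C, did not pass, with 1353 and 1604 FPKM and then 909 and 1702 FPKM (-0.24 ± 0.53). Of 43 genes of glycolysis, pyruvate use and the TCA cycle, 11 rose (25.6%) and 7 fell (16.3%), against 13.9% and 17.6% of all genes. The counts were 5 and 4 without 2C replicate 2, 6 and 6 without 4C replicate 1, 7 and 3 without 4C replicate 2, and 12 and 5 without 2C replicate 1. Apart from hexokinase Hk1 and the cytosolic Idh1, those that rose serve pyruvate oxidation and the TCA cycle in mitochondria, and they included Suclg1 of succinyl-CoA ligase (4.91 and 4.49 FPKM, then 104 and 87.8 FPKM) and Pdha1 of pyruvate dehydrogenase (24.2 and 21.3 FPKM, then 176 and 129 FPKM). Those that fell were Slc2a1, Aldoc, Pgk1, Pkm, Ldhb, Slc16a1 and Pdk1, which serve glucose uptake, glycolysis, lactate exchange and the restraint of pyruvate dehydrogenase. Several of these calls were weak. Hk1 lost the call in 9 of 12 alternatives, Pgk1 in 8, Slc2a1 in 5, Slc16a1 in 4, and Idh1 and Pkm in 2 each. Ldhb, a lactate dehydrogenase, went from 87.4 and 88.8 FPKM to 3.16 and 17.6 FPKM (-3.34 ± 0.70, adjusted p = 0.00497).

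**Figure D3:**
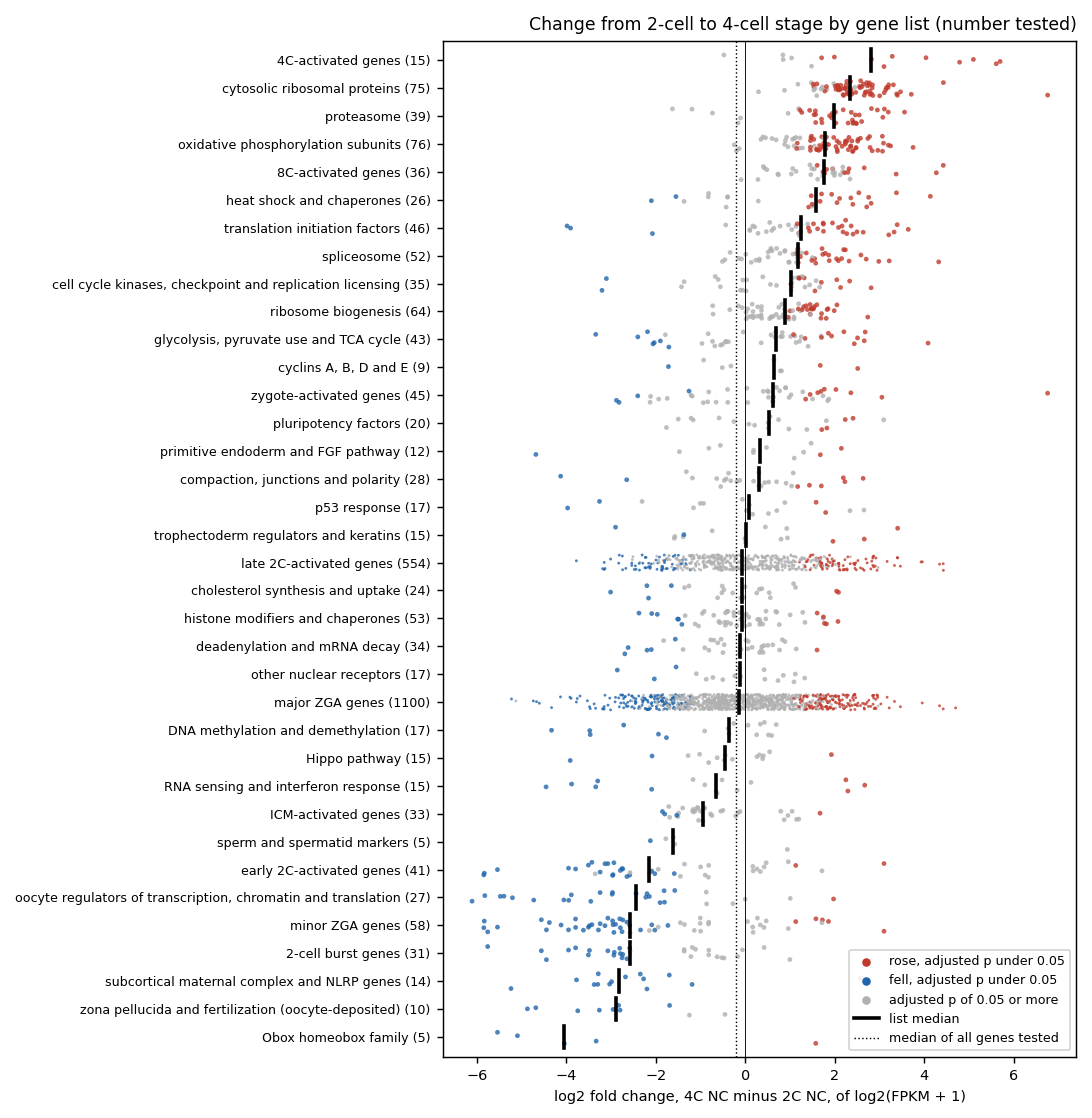
log2 fold change from 2C to 4C (x axis) of each tested member of each gene list with at least 5 members tested, coloured by whether it rose or fell at an adjusted p under 0.05, with the list's median as a black bar and the median of all 11574 genes as a dotted line. The lists for ribosomal proteins, proteasome and oxidative phosphorylation lie at medians of 2.33, 1.98 and 1.79 with no member that fell, and the Obox, zona pellucida and subcortical complex lists lie at -4.04, -2.89 and -2.83.

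Oocyte-deposited transcripts fell steeply. Omt2a, an egg transcript on chromosome 9, went from 6042 and 2467 FPKM at 2C to 14.3 and 205 FPKM at 4C (-6.10 ± 0.99, adjusted p = 0.00146). Its near-identical neighbour Omt2b, which was outside the 12 genes with the greatest fall, went from 8143 and 3417 FPKM to 37.2 and 369 FPKM. The Tcl1 cluster, which encodes Akt coactivators, spans chr12:106397900-106460947 (mm9) and held 5 of the 12 genes with the greatest fall. Tcl1b1 went from 1375 and 341 FPKM to 2.71 and 16.1 FPKM (-6.43 ± 0.86, adjusted p = 0.0007), and Tcl1 from 728 and 254 FPKM to 3.02 and 13.5 FPKM. Tcl1b3, Tcl1b4 and Tcl1b5 fell by 6.11 to 6.26 on the log2 scale. These genes are close copies of each other, and reads may have been shared among them.

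In each of Omt2a, Omt2b and the Tcl1 cluster, 2C replicate 1 was above 2C replicate 2 and 4C replicate 2 was above 4C replicate 1. The same order held for the medians of the 27 tested oocyte regulators, at 30.5 and 16.0 FPKM at 2C and 0.972 and 6.71 FPKM at 4C. Among the 12 genes with the greatest fall, Sebox, a maternal homeobox gene (94.7 and 36.4 FPKM), and Rfpl4b (96.5 and 32.8 FPKM), which is also among the study's minor ZGA genes, were listed at 0 in both 4C libraries. C86187, Gm13078 and Gm11758 completed the 12, at 557 and 127 FPKM, 307 and 46.6 FPKM, and 114 and 26.0 FPKM at 2C and below 6 FPKM in each 4C library. The small nucleolar RNA Snora78, a gene of only 128 bases, was listed at 1630.3 and 1674 FPKM at 2C and 0 at 4C. It was also listed at 0 in all 4 knockdown pools of these stages and at 1955 and 4501 FPKM in the 8C NC pools.

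Of 10 zona pellucida, oocyte growth factor and fertilization genes, 8 fell (80%, against 17.6% of all genes) and none rose. The growth factors Bmp15 and Gdf9 had 175 and 38.6 FPKM and 101 and 39.6 FPKM at 2C, and 1.20 and 3.83 FPKM and 3.25 and 9.61 FPKM at 4C. Zp3, a sperm-binding zona protein, did not pass, with 38.9 and 36.5 FPKM and then 18.1 and 40.8 FPKM (-0.45 ± 0.57), nor did Izumo1r (adjusted p = 0.062). Of 14 genes of the subcortical maternal complex and the NLRP family, 13 fell (92.9%), led by Zbed3 (299 and 199 FPKM, then 2.47 and 11.2 FPKM; -5.23 ± 0.59, adjusted p = 0.000362). The 14th, Khdc3, had 4.28 and 4.74 FPKM and then 93.4 and 10.4 FPKM, and its rise did not pass (adjusted p = 0.063). Of 27 oocyte regulators, 21 fell (77.8%) and 1 rose (3.7%, against 13.9% of all genes). The one that rose was Dppa3 (Stella), which protects maternal methylation in the zygote, from 1207 and 1238 FPKM to 5362 and 4302 FPKM (1.97 ± 0.29, adjusted p = 0.000925). Without any 1 of the 4 libraries, 16 to 18 of these regulators, 11 or 12 of the subcortical complex genes and 5 to 7 of the zona pellucida list fell.

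Homeobox genes of the Obox family divided. Obox1, Obox2, Obox3 and Obox5 fell, with Obox3 at 438 and 247 FPKM and then 0 and 49.7 FPKM (-5.54 ± 1.29, adjusted p = 0.00847) and Obox5 at 107 and 82.2 FPKM and then 0 and 6.74 FPKM. Obox6 rose from 577 and 289 FPKM to 1067 and 1395 FPKM (1.58 ± 0.41, adjusted p = 0.0145). Its rise did not pass with quantile normalization (0.42), with the 4 libraries fitted alone, without 2C replicate 2 (1.08) or without 4C replicate 2 (1.38).

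The 2C-burst genes fell unevenly. Of 31 tested, 16 fell (51.6%, against 17.6% of all genes) and none rose (median log2 fold change -2.58). Zscan4c, Zscan4d and Zscan4f, which serve telomere maintenance, had 73.1, 77.7 and 124 FPKM in 2C replicate 1 and 12.6, 12.2 and 25.2 FPKM in 2C replicate 2, and each was at most 1.13 FPKM in both 4C libraries. Zfp352 went from 214 and 55.9 FPKM to 7.94 and 29.1 FPKM (-2.75 ± 0.74). Tcstv3 (354 and 91.7 FPKM, then 47.4 and 131 FPKM) and Tdpoz4 (45.2 and 13.1 FPKM, then 29.8 and 18.3 FPKM) overlapped between stages and did not pass (adjusted p = 0.237 and 0.946). The summed level of the list was 4197 and 1454 FPKM at 2C, 781 and 1458 FPKM at 4C and 224 and 425 FPKM in the 8C NC pools. As a share of each library's summed FPKM it was 1.38% and 0.548% at 2C and 0.181% and 0.294% at 4C. Thus 2C replicate 2 and 4C replicate 2 were alike in summed level but not in share. Leaving out 2C replicate 1 gave 10 members that fell and a median of -1.62, leaving out 4C replicate 1 gave 10 and -1.89, and leaving out 2C replicate 2 gave 19 and -2.81.

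Genes that the study itself assigned to a stage of activation or to minor or major ZGA were followed as further lists. Only their membership was used. By its methods, the study defined them on reference embryos from their levels across stages. A stage-activated gene had to be silent at all earlier stages, so the direction of these lists is not independent evidence. Over all genes, 13.9% rose and 17.6% fell. Of 15 4C-activated genes, 10 rose and none fell (median log2 fold change 2.82), with library medians of 0.475 and 0.339 FPKM at 2C and 8.6 and 6.72 FPKM at 4C, and 6 rose without 2C replicate 1. Of 36 8C-activated genes, 12 rose and none fell (median 1.76), at medians of 0.355 and 0.140 FPKM and then 6.07 and 1.77 FPKM, among them Slc24a5 (under 0.001 FPKM, then 25.7 and 16.3 FPKM) and Dynap (0 and 0.878 FPKM, then 37.2 and 4.27 FPKM). In this list 4C replicate 1 was well above 4C replicate 2, and 3 members rose without 4C replicate 1, 14 without 4C replicate 2, 5 without 2C replicate 1 and 6 without 2C replicate 2. Of 41 early 2C-activated genes, 21 fell and 2 rose, and of 58 minor ZGA genes, 33 fell and 5 rose (medians -2.14 and -2.58). Without 2C replicate 1 only 11 and 16 of them fell, and without 4C replicate 1 13 and 21. The 554 late 2C-activated genes and the 1100 major ZGA genes had medians of -0.06 and -0.14, close to that of all genes, with 82 and 158 members that rose (14.8% and 14.4%) and 60 and 143 that fell (10.8% and 13%), shares near or below those of all genes. Without 4C replicate 1, 30 and 74 fell, and without 2C replicate 2 35 late 2C-activated genes fell. Within major ZGA the growth factor Hbegf went from 39.7 and 31.2 FPKM to 0.594 and 0.281 FPKM, and Fbxo15, known as a pluripotency marker, from 513 and 220.3 FPKM to 2443 and 4027 FPKM. Of 45 zygote-activated genes 9 rose and 4 fell (3 and 3 without 4C replicate 2, 6 and 1 without 4C replicate 1), and of 33 ICM-activated genes 1 rose and 3 fell, with 0 and 5 without 2C replicate 1 or without 2C replicate 2.

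Of the pluripotency, trophectoderm and primitive endoderm genes tested, 20%, 20% and 16.7% rose, against 13.9% of all genes. The shares that fell were 0%, 13.3% and 8.33%, against 17.6%. Of 20 pluripotency genes, 4 rose (20%, against 13.9% of all genes) and none fell: Nanog (1.28 and 1.94 FPKM, then 14.6 and 8.56 FPKM; 2.23 ± 0.49, adjusted p = 0.00581), Dppa2 (60.6 and 42.9 FPKM, then 312 and 243 FPKM), Dppa5a (445 and 691 FPKM, then 1775 and 1859 FPKM) and Klf2 (4.28 and 8.13 FPKM, then 21.5 and 25.9 FPKM). Nanog and Dppa2 passed in all 12 alternatives, while Dppa5a (adjusted p = 0.0277) and Klf2 (adjusted p = 0.0340) lost the call in 7 each, and 2 genes of the list rose without 2C replicate 1 or without 2C replicate 2. Of 15 trophectoderm genes 3 rose and 2 fell. Tead4, the partner of YAP in trophectoderm specification, rose from 5.58 and 9.94 FPKM to 43.1 and 23.7 FPKM (1.96 ± 0.46, adjusted p = 0.00885), while Id2, an inhibitor of bHLH factors, fell from 139 and 28.9 FPKM to 11.1 and 5.25 FPKM. Hand1, a bHLH factor of trophoblast, and the aquaglyceroporin Aqp3 also rose. Without 4C replicate 1 none of the list rose, and without 4C replicate 2 none fell. In the FGF and primitive endoderm list of 12, Gata6 (1.14 and 0.429 FPKM, then 8.86 and 5.08 FPKM; adjusted p = 0.0441) and Grb2 rose, of which Gata6 lost the call in 8 of 12 alternatives, and Spry4, a feedback inhibitor of FGF signalling, fell from 43.8 and 25.3 FPKM to 0.581 and 0.138 FPKM (-4.68 ± 0.45, adjusted p = 0.000248).

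Among 28 genes of compaction, junctions and polarity, 6 rose (21.4%) and 2 fell (7.14%), against 13.9% and 17.6% of all genes. In the Hippo list below the shares were 6.67% and 13.3%. They were 22.2% and 11.1% in the cyclins, and 28.6% and 5.71% in the cell cycle list. Within 1 polarity complex the members went apart, and the scaffold Pard3 fell from 56.7 and 33.0 FPKM to 1.39 and 1.69 FPKM (-4.12 ± 0.47, adjusted p = 0.000362) and its partner Pard6a rose from 0 and 1.29 FPKM to 8.61 and 8.17 FPKM. The GTPases Cdc42 and Rhoa, the claudins Cldn4 and Cldn7 and the myosin light chain Myl12a also rose, and Cldn3 fell. Only 3 members rose without 4C replicate 1, without 4C replicate 2 or without 2C replicate 1, and 4 fell without 2C replicate 2. Of 15 Hippo pathway genes, Yap1, the transcriptional coactivator, fell from 31.1 and 45.1 FPKM to 8.22 and 7.94 FPKM, Wwc2, an upstream activator of LATS kinases, fell from 28.2 and 51.7 FPKM to 2.2 and 1.13 FPKM, and Lats2 rose from 0.113 and 0.0848 FPKM to 4.92 and 1.94 FPKM (adjusted p = 0.0489), a call lost in 9 of 12 alternatives. Of 9 cyclins tested, the mitotic cyclins Ccnb1 (94.2 and 40.3 FPKM, then 357 FPKM in each library) and Ccnb2 rose, and Ccnd2 fell; 1 cyclin rose without 4C replicate 1, 4C replicate 2 or 2C replicate 2. Of 35 cell cycle kinases, checkpoint and licensing genes, 10 rose, including Cdk4 (7.67 and 21.9 FPKM, then 93.1 and 103 FPKM) and the APC activator Cdc20 (210.0 and 133 FPKM, then 702 and 686 FPKM), and the S-phase regulator E2f1 and the inhibitor Cdkn1c fell. Of this list 4 rose without 4C replicate 1, 5 without 2C replicate 2 and 6 without 4C replicate 2, and with quantile normalization 5 rose and 5 fell.

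**Figure D4:**
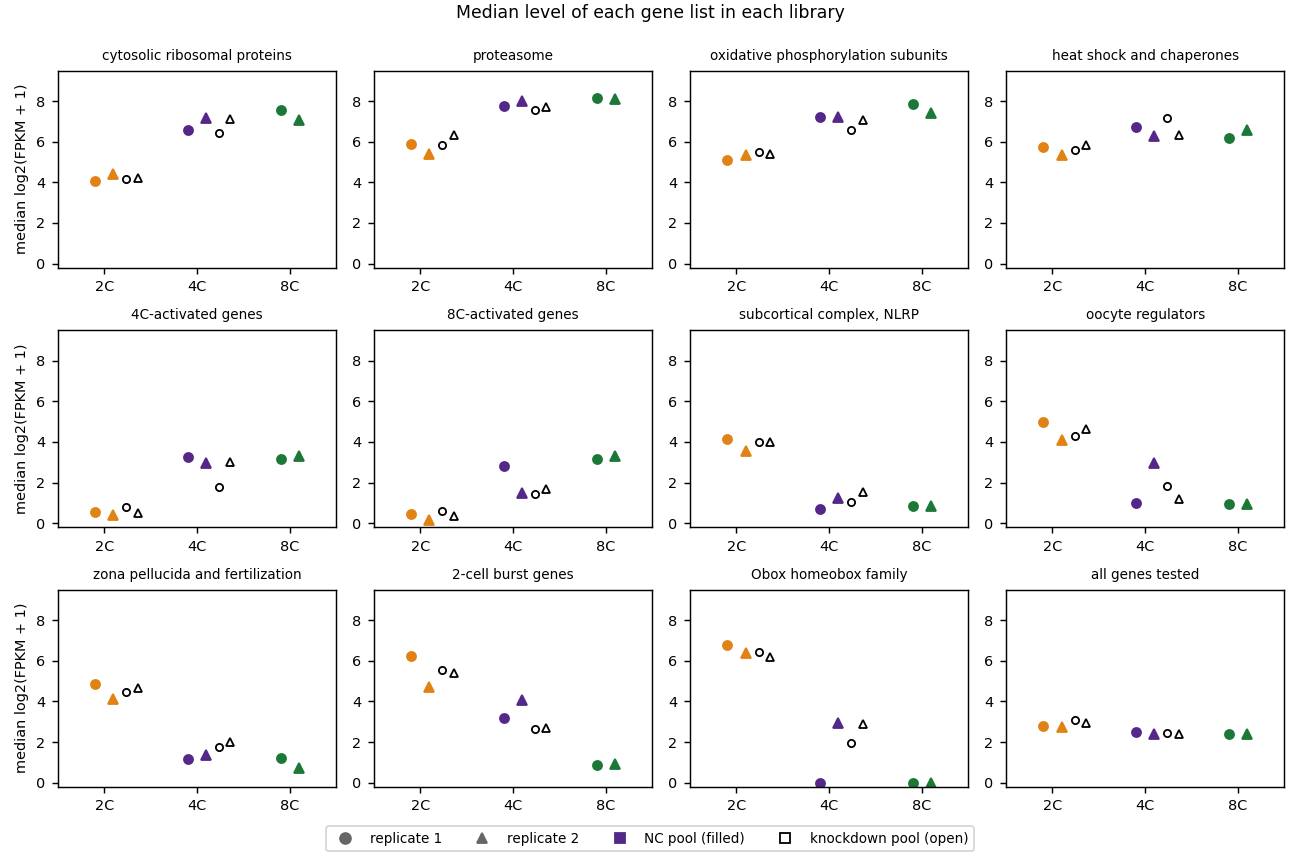
Median log2(FPKM + 1) over the tested members of each list (y axis) in each library at 2C, 4C and 8C (x axis); filled symbols are NC pools, open symbols knockdown pools of the same experiments, circles replicate 1 and triangles replicate 2. The ribosomal protein list is higher in every 4C pool than in every 2C pool, the 8C-activated list is spread between the 4C NC replicates, and the 2C-burst list is lower at 8C than at 4C.

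The direction of change was nearly always the same in pools whose values did not enter the stage means compared. Knockdown pools of the same 2 experiments, at 2C with an Nr5a2 siRNA and at 4C with siRNAs against all 4 receptors, share no library with the NC pools, but were part of the same fit and so of the spread behind the calls. Their siRNAs were labelled 20 µM at 2C and 5 µM at 4C, so the labelled dose differs with stage. Whether a labelled dose is per target gene or in total is not settled by the sources used here. In them Nr5a2 itself had 2.72 and 6.13 FPKM at 2C and 3.98 and 17.6 FPKM at 4C. Past both limits, 3.26% of the genes rose and 9.07% fell in these pools, and 33.8% passed at an adjusted p under 0.05. Of the genes that rose past both limits in NC pools, 601 were tested in the knockdown pools, 594 (98.8%) had the same sign and 510 (84.9%) rose at an adjusted p under 0.05, against 9.75% of all genes tested there. Of those that fell, 721 were tested, 719 (99.7%) had the same sign and 687 (95.3%) fell, against 24.0% of all genes there. By sign alone, 38.7% of all genes tested in the knockdown pools were higher at 4C and 61.3% were lower. Because both kinds of pool came from the same 2 experiments, stage and experiment cannot be told apart in the knockdown pools either.

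Single control embryos, injected with base editor mRNA alone or with guide RNA alone, gave a 2C-to-8C comparison that was fitted apart (16 embryos a stage); whether both stages were handled together is not given in the sources used here. Past both limits, 8.35% of the genes rose and 10.9% fell there. At an adjusted p under 0.05, 587 of 603 genes (97.3%) that had risen past both limits in NC pools rose, against 29.2% of all genes, and 716 of 725 (98.8%) that had fallen fell, against 43.4%. The 8C stage differs from the 4C stage, so the sizes are not comparable, but Bhmt (log2 fold change 7.44), Hspa8 (5.15), Rpl32 (4.06) and Dppa3 (2.2) were higher at 8C, and Omt2a (-8.78), Zbed3 (-6.74) and Zscan4f (-4.86) lower, as in the pools. Snora78 went the other way (5.83). As a measure of how far NC pools of a single stage differ between experiments, the 8C NC pools of 3 experiments were compared in pairs, although their NC siRNA also differed in dose (20, 15 and 5 µM). The experiment of the 2C pools was not among these 3, so its difference from that of the 4C pools was not measured. Past both limits there were 0 of 9422 genes (0%), 0 of 9395 (0%) and 2 of 9392 (0.0213%), with 457, 622 and 752 genes at an unadjusted p under 0.05 (limma).

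**Figure D5:**
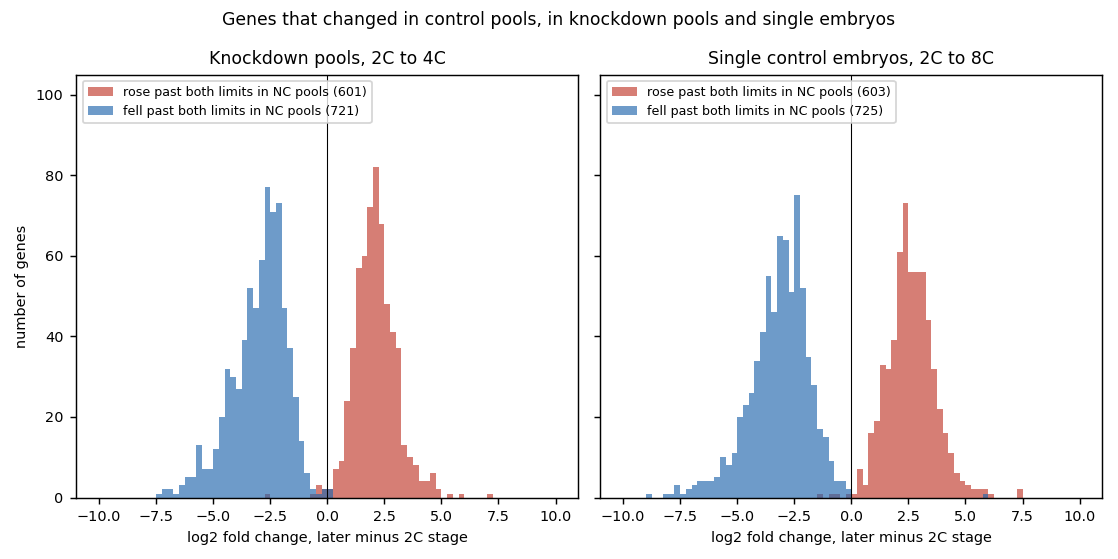
Histograms of the log2 fold change (x axis, bins of 0.25) in knockdown pools from 2C to 4C (left) and in single control embryos from 2C to 8C (right) of the genes that had risen or fallen past both limits in NC pools, with the number of genes on the y axis. Nearly all genes that rose lie right of 0 and nearly all that fell lie left of it in both panels (98.8% and 99.7% on the left). Of all genes tested in the knockdown pools, 38.7% had a change above 0 and 61.3% below.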

How the data were processed

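RNA-seq values were taken as deposited: the authors trimmed paired-end Smart-seq2 reads of pooled embryos, mapped them to mm9 with TopHat and computed FPKM per gene with Cufflinks v2.2.1 on the UCSC refFlat annotation, by the study's methods; how reads of repeated genes were shared is not given in the sources used here. FPKM keeps no counts, so the study's edgeR test could not be run, no counting interval is given, and the relative depth is only an estimate from the lowest values. Values of 24006 symbols were tested as log2(FPKM + 1) with limma 3.58.1 in R 4.3.3 (a mean per group over 12 pools in 6 groups, eBayes with a trend), for genes with a mean of at least 1 FPKM at either stage. Fold changes are on this scale and understate those of low genes. Only 2 libraries a group were present, and the spread was pooled over the 12. The single embryos were fitted alone (32 libraries). The code was tested on simulated data. Named genes were the 4 target receptors, the 12 in each direction with the greatest change past both limits, no overlap and a mean of at least 10 FPKM, and of each list up to 4 with the greatest change and 3 with the highest level (lists of up to 10 in full); other members of these lists, and genes given for a promoter motif, were named after their values were seen. Members and lists were chosen with earlier results of these data known. Gene positions are from GENCODE M1 (mm9). Promoters are from RefSeq (GRCm38.p6), of which 8779 of 11574 tested genes matched; the first listed was used for the 1698 genes with several. Alternatives covered the pseudocount, filter, scaling, trend, replicate block and each library left out.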

Additional observations from a re-analysis of the deposited data

Results flagged for a closer look

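In 3 genes the change from 2C to 4C differed between NC and knockdown pools by an interaction term in the same limma fit (adjusted p under 0.05 over 12607 genes; 797 had an unadjusted p under 0.05); these genes were named after their values were seen. For Defa4, a defensin gene, the log2 difference of the changes (NC minus knockdown) was 8.92 ± 0.52 SE (adjusted p = 3.24e-05), with 0 in all 4 NC libraries, 470 and 497 FPKM in the 2C knockdown libraries and 0 in those at 4C. For Rln1, the relaxin gene, it was 4.06 ± 0.53 (adjusted p = 0.0420), with 0 in all NC libraries, 19.6 and 12.4 FPKM in the 2C knockdown libraries and 0 at 4C. For Duxbl1, a homeobox gene related to Dux, it was 5.43 ± 0.68 (adjusted p = 0.0397), with 0.880 and 0.00103 FPKM and then 9.57 and 7.93 FPKM in NC pools, and 5.69 and 4.75 FPKM and then 0.0302 and 0.00527 FPKM in knockdown pools. Of the 3, Duxbl1 alone had values above 0 in the NC libraries, and the knockdown pools differ in their siRNAs between the stages.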

How the results depend on the processing

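In NC pools, the 604 genes that rose and 727 that fell past both limits became 0 and 1 when only the 4 libraries compared were fitted (750 and 792 at an adjusted p under 0.05), 1603 and 2041 at an adjusted p under 0.05 with no fold limit, and 135 to 404 and 154 to 676 with each library left out. A lone library is then taken to vary like the other groups. Without 4C replicate 1 they were 135 and 154, and without 4C replicate 2 238 and 327. In knockdown pools, 390 and 1084 became 0 and 1 with the 4 libraries alone, 1165 and 2871 with no fold limit, and 154 to 230 and 486 to 528 with a library left out, and 634 fell with quantile normalization. In single embryos, 1071 and 1392 became 1655 and 3359 with a pseudocount of 0.1 and 3741 and 5565 with no fold limit; without the 2C embryo whose column heading gives the 4-cell stage they were 1141 and 1565. Among the 8C NC pairs, the third had 1 gene without the filter, 1 with quantile normalization and 0 with the 6 NC libraries alone, and leaving out a library gave 0 to 5 in each pair. The causes were not tested.

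Of 151 genes named here, 140 passed at an adjusted p under 0.05 and 89 of these passed in each alternative that gave a value; none of these turned direction. Of the genes that did not pass, Rarg, Nr1h3, Cox8a, Tdpoz4 and Zp3 changed sign in 1 or 2 alternatives each. The median of 10 of 39 lists changed sign in at least 1 alternative, among them those for trophectoderm, p53, cholesterol, cyclin and compaction genes and the late 2C-activated and major ZGA lists.

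The replicate block gave 558 and 684 genes in NC pools. The replicate numbers did not pair the libraries (correlation of deviations across genes -0.031).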

Other observations

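Of 17 genes of DNA methylation and demethylation, 6 fell (35.3%, against 17.6% of all genes) and none rose, including the stress-induced Gadd45a (17.9 and 33.5 FPKM, then 0 and 0.612 FPKM; log2 fold change -4.33 ± 0.52, adjusted p = 0.00044), Gadd45b (148 and 109 FPKM, then 15.7 and 21.7 FPKM), and Zfp57, which protects imprints (61.7 and 109.8 FPKM, then 6.88 and 6.14 FPKM). Uhrf1, Tet3 and Gadd45g were the others, of which Uhrf1 lost the call in 9 alternatives and Gadd45g in 4. With a pseudocount of 0.1, 4 members of the list fell. The p53 response list stood near the shares of all genes, with 2 of 17 that rose and 2 that fell (11.8% each), and without 2C replicate 1 none rose. The p53 inhibitor Mdm4 fell from 235 and 255 FPKM to 12.8 and 16.9 FPKM (-3.97 ± 0.39, adjusted p = 0.000248) and Rrm2b from 22.7 and 19.4 FPKM to 1.68 and 0.984 FPKM, while the pro-apoptotic Bax rose from 13.7 and 38.1 FPKM to 73.2 and 92.2 FPKM and Tnfrsf10b rose too. Of 15 genes of RNA sensing and the interferon response, 5 fell and 3 rose (33.3% and 20%), and 1 rose without 4C replicate 2, 2C replicate 1 or 2C replicate 2. Oas1d, an oocyte-enriched member of the oligoadenylate synthetase family, fell from 79.1 and 72.3 FPKM to 0.566 and 6.84 FPKM, and Ifitm2 rose from 9.05 and 8.35 FPKM to 39.4 and 54.9 FPKM.

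The next 3 lists did not stand above the shares of all genes (13.9% rose and 17.6% fell). Of 34 deadenylation and decay genes, 5 fell (14.7%) and 1 rose, and 2 fell without 4C replicate 2 or without 2C replicate 1, 3 without 4C replicate 1. Those that fell included the deadenylase Cnot6l (7.90 and 7.49 FPKM, then 1.01 and 0 FPKM) and the decapping enzyme Dcp2 (14.7 and 8.27 FPKM, then 1.55 and 1.71 FPKM). Of 53 histone modifiers and chaperones, 5 rose (9.43%) and 6 fell (11.3%), and 3 rose without 4C replicate 1 or without 2C replicate 2, and 3 fell without 4C replicate 2. The list held the Polycomb protein Eed up (17.3 and 29.5 FPKM, then 77.9 and 81.1 FPKM) and the methyltransferase Kmt2d down (6.64 FPKM and 6.61 FPKM, then 0.924 and 0.122 FPKM). Of 24 cholesterol genes, 2 rose (8.33%) and 4 fell (16.7%), and none passed in either direction without 4C replicate 1 (limma; 2 fell without 4C replicate 2 or without 2C replicate 1). Insig1, a brake on sterol synthesis, was at 94.9 and 49.8 FPKM and then 16.1 and 13.2 FPKM.

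The genes that rose were shorter than those that fell. The longest annotated transcript had a median of 1896 bases in genes that rose past both limits, 2998 bases in those that fell and 2823 bases in all genes tested (a length was found for 94.2%, 89.0% and 91.9%). In the third of genes with the shortest transcripts 20.9% rose and 14.5% fell, and in the third with the longest 6.49% rose and 21.6% fell. The part of length in the counts was not tested.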
